A study of Mus musculus with 4 samples.

Results

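The 8 genes described here are those by which a cholinergic motor neuron is usually known: *Chat*, *Slc18a3*, *Slc5a7* and *Ache*, which serve the synthesis, packing, reuptake and breakdown of acetylcholine, *Isl1*, *Isl2* and *Mnx1*, which encode homeodomain transcription factors, and *Prph*, which encodes the neurofilament protein peripherin. They were chosen by name and not by a rule on their values, but with earlier results of these data known. A probe carrying the RefSeq accession was found for 7 of the 8 genes, with 9 probes in all, among 32575 genes or identifiers on the array. No probe was matched to *Mnx1* (chromosome 5, bases 29473823 to 29478470), so it has no value here. The study asked what the kinase IP6K2, which converts inositol hexakisphosphate to an inositol pyrophosphate, does in the gut and its nervous system. Spinal cord and duodenum of male mice aged 20 weeks gave the total RNA, and the mice were either *IP6K2*-KO or WT littermates. The knockout allele lacks exon 6, where the catalytic part of the enzyme is encoded. Mice of both genotypes were moved from a standard diet to a purified one, given for 1 week, and were then without food for 48 h, so no array shows the fed state. Each combination of genotype and tissue has 1 array, which makes 4 on 1 slide, hence a difference between 2 arrays cannot be held against replicates. No test was made, and a fit that pools both tissues or both genotypes, which would leave 1 residual degree of freedom, was not run. The RNA came from organs and not from sorted cells, and in such samples fewer cells of a type and less RNA per cell cannot be told apart.

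Somatic motor neurons lie in the ventral horn of the spinal cord and release acetylcholine onto skeletal muscle, and preganglionic autonomic neurons of the cord are cholinergic too. Choline enters the nerve terminal through the transporter SLC5A7, is acetylated by CHAT, and the product is loaded into vesicles by SLC18A3, whereas ACHE ends the signal by hydrolysis in the cleft. In the duodenum the cholinergic neurons belong to the myenteric and submucosal plexuses, *Chat* is also known in tuft cells of the epithelium, and *Isl1* is also known in enteroendocrine and pancreatic islet cells.

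*Chat* and *Slc18a3* form a nested pair, in which the transporter gene lies inside the span of the *Chat* gene and on the same strand. In the mouse build GRCm38.p6, *Chat* spans bases 32408203 to 32465909 of chromosome 14 and *Slc18a3* bases 32462437 to 32464850, with their starts 1059 bases apart. The 250 bases upstream of each start were taken from RefSeq in GRCm38.p6, where all 8 symbols were matched. They are shown for this pair because the pair shares a locus. They are also shown for *Isl1* (chromosome 13, bases 116298270 to 116309688), whose difference between tissues in KO-labelled mice stood apart from those of the other members. That choice was made after its values were seen. All 3 genes are on the minus strand, the sequences run 5′ to 3′ along the gene, and capitals mark matches on either strand to the letters CCAAT, to the letters GGGCGG or to the letters CAGCTG.
Chat, chr14:32465910-32466159: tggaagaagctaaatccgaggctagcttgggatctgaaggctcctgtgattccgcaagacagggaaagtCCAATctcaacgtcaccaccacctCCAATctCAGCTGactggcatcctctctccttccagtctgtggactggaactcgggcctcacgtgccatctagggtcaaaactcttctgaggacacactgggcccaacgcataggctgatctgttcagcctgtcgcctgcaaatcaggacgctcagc
Slc18a3, chr14:32464851-32465100: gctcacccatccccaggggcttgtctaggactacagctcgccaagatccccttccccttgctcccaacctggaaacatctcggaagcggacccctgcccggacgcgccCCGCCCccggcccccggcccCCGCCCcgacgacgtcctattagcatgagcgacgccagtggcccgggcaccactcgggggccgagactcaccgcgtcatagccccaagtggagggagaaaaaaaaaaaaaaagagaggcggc
Isl1, chr13:116309689-116309938: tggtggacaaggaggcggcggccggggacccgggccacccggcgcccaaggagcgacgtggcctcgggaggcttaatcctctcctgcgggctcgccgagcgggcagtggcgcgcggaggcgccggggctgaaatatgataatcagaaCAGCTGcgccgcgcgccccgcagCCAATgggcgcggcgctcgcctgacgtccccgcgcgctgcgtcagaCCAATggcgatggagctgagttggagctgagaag
The *Chat* window holds CCAAT in 2 places and CAGCTG in 1, as does the *Isl1* window, and the *Slc18a3* window holds GGGCGG, read on the other strand, in 2 places. Of the 8 member promoters, 4 hold CCAAT (*Chat*, *Isl1*, *Isl2* and *Mnx1*), against 33.8% of 32851 promoters of the same length. GGGCGG was present in 5 (*Slc18a3*, *Ache*, *Isl2*, *Mnx1* and *Prph*), against 32.7% of all promoters, and CAGCTG in 2 (*Chat* and *Isl1*), against 13.0%. TATAAA was present in the promoters of *Slc5a7* and *Prph*, 2 of 8, against 12.4%, and TAATTA in 0 of 8, against 4.84%. Both strands were searched, no motif searched is part of another, and the letters CAGCTG, like TAATTA, read the same on both strands. For *Isl2* (bases 55540899 to 55541148) and *Prph* (bases 99054924 to 99055173) the window lies inside the span of the gene given below. It is therefore not upstream of the outer end of that span. The windows of *Ache* and *Slc5a7* overlap their spans by a few bases. A match describes the letters of the window only.

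The 4 arrays differed in brightness. The processed signal, which is the intensity of a spot after background subtraction by the scanner software, had a 75th percentile of 905 and 971 on the WT and the KO-labelled spinal cord arrays, 68.0 on the WT duodenum array and 323 on the KO-labelled duodenum array. Of 39429 probes, 76.8%, 77.4%, 51.6% and 66.3% were well above background in the same order. A normalized level below is log2 of the processed signal minus the 75th percentile of its array, and a difference is between 2 such levels. The lowest normalized level well above background was −7.66, −7.82, −3.99 and −6.22, so the WT duodenum array is the least able to show a weak transcript. *Ip6k2*, the targeted gene, had a signal of 452 on the WT and 1320 on the KO-labelled spinal cord array (a difference of 1.45), and of 139 and 572 in the duodenum (−0.21). The files do not give the position of its probe relative to exon 6, and genotypes are therefore written as labelled. Tissue labels were checked on markers. All 12 genes of a list shared by all neurons and 28 and 29 of 30 further motor neuron genes were well above background on the spinal cord arrays. On the WT and KO-labelled duodenum arrays, 7 and 11 of the 12 and 13 and 21 of the 30 were, so detection alone separates the tissues weakly for these lists. The summed signals of the 12, before scaling, were 303304 and 311923 in spinal cord and 2968 and 4283 in duodenum. Of 8 gut epithelial genes, 8 were well above background on each duodenum array and 3 on each spinal cord array.

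The first question is where the members were detected. *Chat*, the gene of choline acetyltransferase, was read by 1 probe, which read 947 on the WT spinal cord array, 1022 on the KO-labelled spinal cord array, 5.49 on the WT duodenum array and 14.4 on the KO-labelled duodenum array. *Slc18a3*, the vesicular acetylcholine transporter, had signals of 9616, 10160, 46.6 and 90.0 in the same order. Both transcripts were bright in either spinal cord and weak in either duodenum, and *Chat* was not well above background in WT duodenum. *Slc5a7*, the high-affinity choline transporter of the terminal (chromosome 17, bases 54273590 to 54299038), was read by 2 probes. The brighter had signals of 2477, 2693, 1.12 and 7.80 and was not well above background in WT duodenum. The dimmer had signals of 447, 490, 1.15 and 1.16 and was not well above background in either duodenum. *Ache*, acetylcholinesterase (chromosome 5, bases 137288247 to 137294466), gave 2979, 3030, 15.7 and 62.9 with its first probe and 2002, 2079, 14.8 and 64.2 with its second. Both *Ache* probes were well above background on all 4 arrays, with the same order of arrays.

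Of the transcription factor genes, *Isl2* (chromosome 9, bases 55538677 to 55547667) had signals of 412 in WT and 455 in KO-labelled spinal cord, 2.01 in WT duodenum, where it was not well above background, and 9.56 in KO-labelled duodenum. *Isl1*, needed for the formation of motor neurons and still expressed in some of them, was read by a probe spotted 10 times, with mean signals of 48.4, 60.5, 1.12 and 19.8 in that order. Its normalized level was −4.01 in KO-labelled spinal cord and −4.03 in KO-labelled duodenum, whereas every other member was lower in the duodenum. *Prph* (chromosome 15, bases 99053579 to 99058978), an intermediate filament gene of neurons with axons in the periphery and so also of enteric neurons, had signals of 4410, 4734, 52.5 and 150 and was well above background on all 4 arrays. In all, 7 of 7 members were well above background on each spinal cord array, 3 of 7 on the WT duodenum array and 7 of 7 on the KO-labelled duodenum array. Of all probes, 76.8% and 77.4% were on the WT and KO-labelled spinal cord arrays, and 51.6% and 66.3% on the duodenum arrays. With 7 genes, these counts say little particular of the members.

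**Figure D1:**
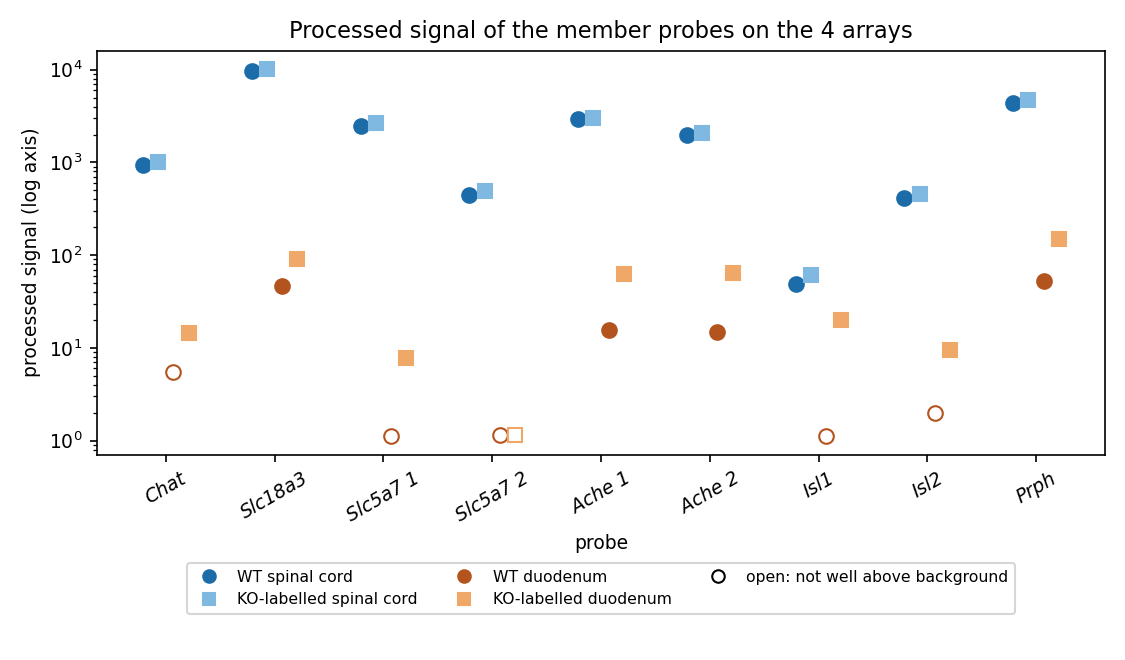
Processed signal (log axis) of the 9 probes of the 7 members on each of the 4 arrays, 1 point per array, with open symbols where the probe was not well above background. The circles and squares of the spinal cord lie next to each other for every probe, and the duodenum signals lie lower, with WT below KO-labelled.

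The comparison of genotypes in the spinal cord asks whether the cholinergic motor neuron genes differ between the array labelled *IP6K2*-KO and the WT array. None of the 7 members was at least 2-fold higher or lower on the KO-labelled array (0 and 0), when 2.28% of the 25216 genes compared were at least 2-fold higher and 0.865% at least 2-fold lower. A count of 0 of 7 is near that background and says nothing particular of the members. The differences of the members themselves ranged from −0.077 to 0.22 with a median of 0.0096, whereas the median of the 24165 genes above background on both arrays was −0.038. In total 5 members lay above 0 and 2 below.

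The enzyme and transporter genes of acetylcholine were close to 0. The normalized level of *Chat* was 0.065 in WT and 0.074 in KO-labelled spinal cord, a difference of 0.0096. The spread of spots within an array gives a technical SD of 0.037 for a difference at this brightness, estimated from the 399 probes spotted 10 times on each array. It covers spots, and neither mice nor RNA preparations. *Slc18a3* differed by −0.022 (technical SD 0.029), and the *Slc5a7* probes by 0.019 (0.032) and 0.031 (0.038). Each of these differences was smaller than 1 technical SD, and their signs varied with the scaling. *Ache* differed by −0.077 (0.032) with the first probe and by −0.047 with the second, both lower on the KO-labelled array, and the sign was reversed to 0.16 for the gene under another background correction described in the closing section. Even so, 82.0% of genes lay farther from the median gene than *Ache* did, 78.2% farther than *Chat* and 92.7% farther than *Slc18a3*.

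*Isl2* differed by 0.041 (technical SD 0.039) and *Prph* by 0.00068 (0.029), and both were again at the level of the spread between spots. *Isl1* differed the most, by 0.22 (0.107), which is 1.16-fold higher on the KO-labelled array, and 24.7% of genes lay farther from the median gene. The technical SD is that of a single spot, whereas the *Isl1* value is a mean over 9 spots in WT and 10 in KO-labelled spinal cord. It therefore overstates the spot error of this value. Its spots can be compared directly. On the WT array 1 of the 10 spots, at a signal of 6.28, had been marked as an outlier by the scanner software and was left out. The other 9 ranged from 42.1 to 55.6 with a median of 47.7, and the 10 spots of the KO-labelled array from 52.8 to 67.8 with a median of 60.6, so that the ranges overlapped. Over the 9 pairs of spots at the same place the mean difference after normalization was 0.22 (SD 0.116), higher on the KO-labelled array in 8 of 9. Spots of 1 array share 1 RNA sample, so these pairs give no error for the genotype. The *Isl1* value also moved with the processing, with −1.59 under normexp background correction and 0.050 to 0.22 under the other 8 ways of scaling.

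**Figure D2:**
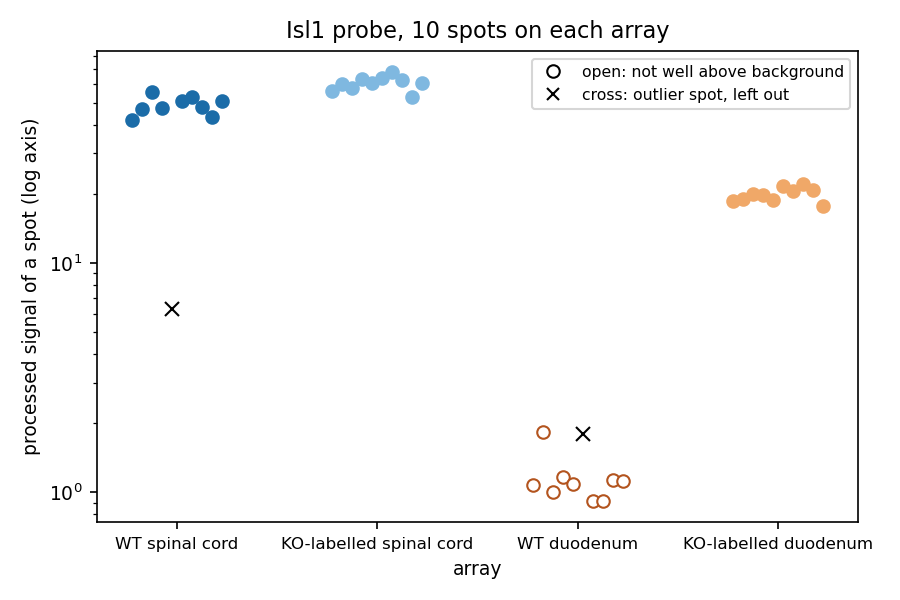
Processed signal (log axis) of the 10 spots of the *Isl1* probe on each array, 1 point per spot in the order of the file, with open symbols for spots not well above background and crosses for outlier spots left out. KO-labelled spinal cord spots lie at 52.8 to 67.8 and WT spots at 42.1 to 55.6, KO-labelled duodenum spots at 17.6 to 22.0, and no WT duodenum spot was well above background.

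Genes of the same pathway and cell type were drawn from lists of 28 further cholinergic genes (receptors, enzymes and transporters) and 30 further motor neuron genes. Of the 28, 1 was at least 2-fold higher on the KO-labelled spinal cord array and 0 at least 2-fold lower, 7 were above background on neither array, and the median of the 19 above background on both was −0.021. The 1 gene was *Chrna1*, the α subunit of the muscle nicotinic receptor, with a signal of 10.4 in WT and 24.8 in KO-labelled spinal cord and a difference of 1.16. *Chrm3*, a muscarinic receptor gene, followed at 0.55 (signals 53.1 and 83.4) and *Chrm1* at −0.46 (53.2 and 41.6). Of the 30 motor neuron genes, 0 were 2-fold higher or lower, and the median of the 28 above background on both arrays was −0.024. The largest differences were those of *Aldh1a2*, which makes retinoic acid, at 0.86 (223 and 436), *Mmp9*, known as a marker of fast motor neurons, at 0.60 (199 and 324), and *Nos1*, neuronal nitric oxide synthase, at −0.46 (56.6 and 44.1). The 12 genes shared by all neurons had a median of −0.073 and ranged from −0.30 to 0.15.

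Markers of other tissues did differ between the same 2 spinal cord arrays. Of 13 skeletal muscle genes, 12 were at least 2-fold higher on the KO-labelled array, with a median difference of 4.02 and a summed signal of 26892 in WT and 112493 in KO-labelled spinal cord. *Ckm*, muscle creatine kinase, had signals of 51.5 and 1320. Of 10 peripheral nerve genes, 6 were at least 2-fold higher, with a median of 2.53 and summed signals of 40493 and 55316. Of 8 red blood cell genes, 6 were at least 2-fold higher, with a median of 1.23 and summed signals of 206049 and 340857. None of these marker genes with a value above background on both arrays was at least 2-fold lower. Of the genes for subunits of the receptor on muscle, *Chrna1* was higher on the array where the muscle genes were higher. *Chrnd* was above background only there (1.12 and 5.61), near the lowest signal well above background, 4.29, and higher by at least 0.23. *Chrnb1* differed by 0.0064 (19.6 and 21.1), and *Chrne* and *Chrng* were above background on neither array. The part of muscle RNA in these values was not tested. The 7 members lay within 0.22 of 0 on the same arrays.

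**Figure D3:**
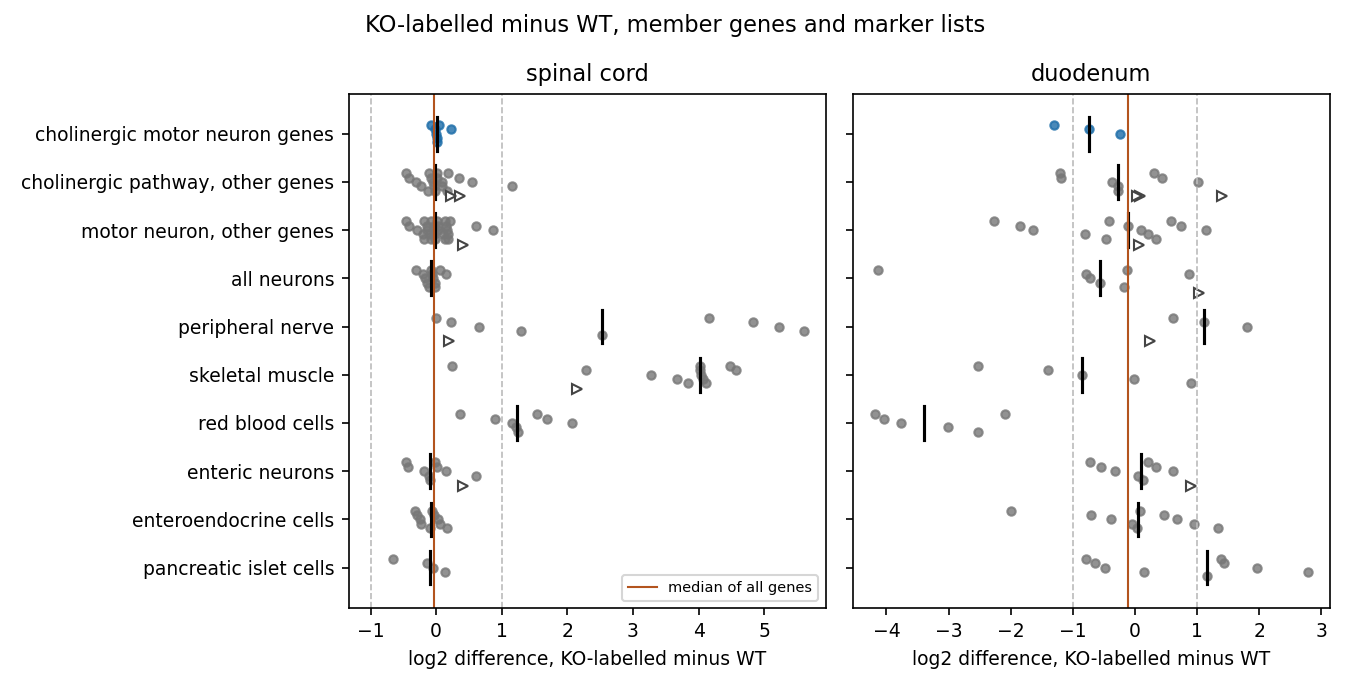
Difference in normalized level (log2, KO-labelled minus WT) in spinal cord (left) and duodenum (right) for the members and for lists of marker genes, 1 dot per gene above background on both arrays, open triangles for lower bounds, black bars for the median of the dots, the orange line for the median of all genes and dashed lines at 2-fold. Members in spinal cord sit between −0.077 and 0.22 while the medians of skeletal muscle and peripheral nerve lie at 4.02 and 2.53, and the 3 members measured in duodenum sit between −1.30 and −0.25.

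In the duodenum, 3 members could be compared between the genotypes and all 3 were lower on the KO-labelled array after scaling. *Slc18a3* passed 2-fold. Its processed signal was 46.6 in WT and 90.0 in KO-labelled duodenum, a ratio of 1.93, while the 75th percentile of the arrays was 68.0 and 323. The normalized level was therefore −0.55 in WT and −1.84 in KO-labelled duodenum, a difference of −1.30 with a technical SD of 0.104, or 2.46-fold lower. Relative to the median gene, which was at −0.11 over 16812 genes, the difference was −1.18, and 9.22% of genes were lower still. *Prph* differed by −0.74 (0.094), or 1.66-fold lower, with signals of 52.5 and 150, and 22.5% of genes lay lower. *Ache* differed by −0.25 (0.167) and, with the second probe, by −0.13, both near the median gene. Hence 1 of 7 members was at least 2-fold lower and 0 of 7 at least 2-fold higher, when 11.9% of the 21429 genes compared were at least 2-fold lower and 7.2% at least 2-fold higher, and a share of 1 in 7 is near that background.

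*Chat*, *Slc5a7*, *Isl1* and *Isl2* were well above background on the KO-labelled duodenum array but not on the WT one, and no fold can be given for any of them on this scale. Their normalized levels on the KO-labelled array were −4.49, −5.37, −4.03 and −5.08. All 4 levels are below −3.99, the lowest level that was well above background on the WT array. On this scale, a transcript of the same relative level would not have been detectable in WT duodenum. Other scalings gave bounds: with the spiked-in controls, *Chat*, *Slc5a7*, *Isl1* and *Isl2* were higher on the KO-labelled array by at least 2.14, 1.62, 2.96 and 1.91, and for *Isl1* both quantile normalizations and the deposited table gave at least 0.0076 to 0.0091. *Isl1* came closest to that limit, with all 10 spots well above background on the KO-labelled array, at 17.6 to 22.0, and 0 of the 9 spots kept on the WT array, at 0.917 to 1.84.

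The direction in the duodenum depended on how the arrays were put on a common scale. When the arrays were scaled on spiked-in control probes, which carry RNA added in a fixed amount at labelling, the median gene was higher on the KO-labelled array by 2.89, and *Slc18a3*, *Prph* and *Ache* were higher by 1.71, 2.27 and 2.75. That scaling moves all genes of an array alike. Relative to the median gene, *Slc18a3* lay between −1.30 and −0.95, *Prph* between −0.74 and −0.47 and *Ache* between −0.67 and −0.039 over 9 ways of scaling, below the median gene in 9 of 9 for each. A choice among the scalings cannot be made from these files.

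**Figure D4:**
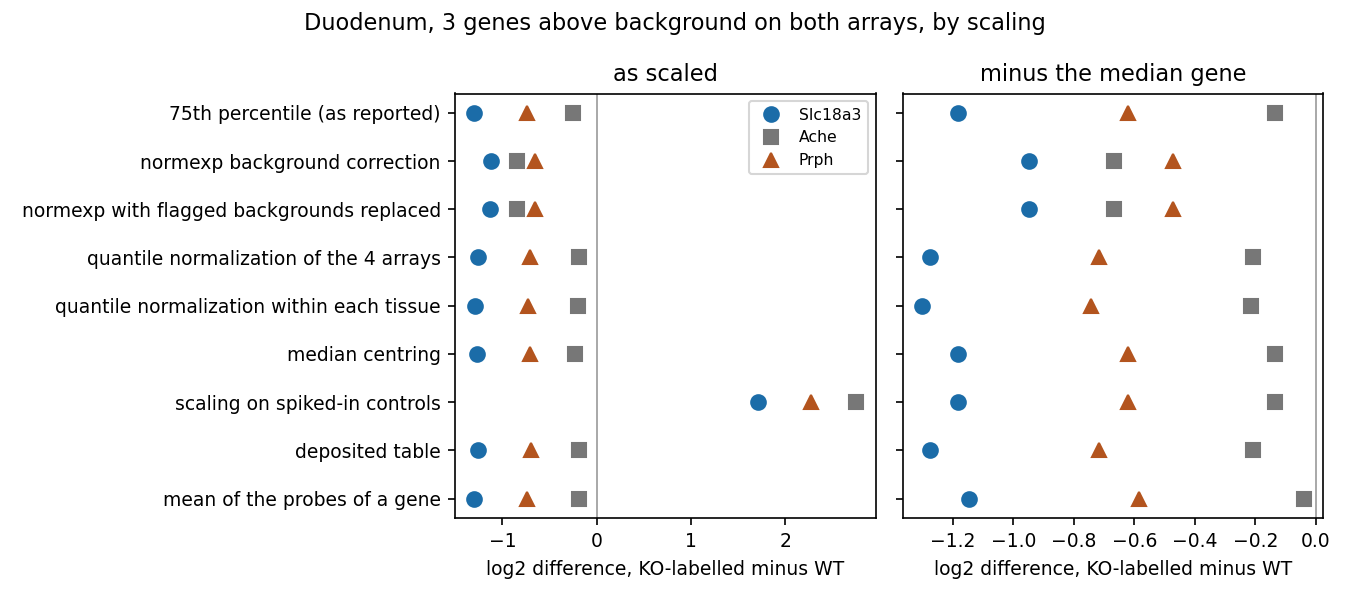
Difference (log2, KO-labelled minus WT duodenum) of the 3 members above background on both arrays under 9 ways of scaling, as scaled (left) and after subtraction of the median gene under the same scaling (right), 1 point per gene and scaling. Scaling on the spiked-in controls places all 3 above 0 on the left, at 1.71 to 2.75, and on the right all points lie below 0, with *Slc18a3* at −1.30 to −0.95.

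The difference between genotypes can be set side by side in the 2 tissues for 3 members. That of *Slc18a3* was −0.022 in spinal cord and −1.30 in duodenum, a gap of −1.27 with a technical SD of 0.108. For *Prph* the gap was −0.74 (0.099) and for *Ache* −0.17 (0.170). None of these gaps could be tested without a second array, and 1 of the arrays, WT duodenum, was far dimmer than the others.

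Other genes of the pathway were read in the duodenum as well. Of the 28 further cholinergic genes, 15 were above background on at least 1 of the 2 arrays. Of these, 2 were at least 2-fold higher and 2 at least 2-fold lower on the KO-labelled array, against 7.2% and 11.9% of all genes compared. Such counts are near that background. Of the 8 above background on both arrays, 5 were within 2-fold, and the median was −0.27. *Chrm3*, the muscarinic receptor of gut smooth muscle and secretory epithelium, was above background only on the KO-labelled array (3.69 and 53.6) and was higher there by at least 1.40. *Chrnb4*, a nicotinic receptor subunit of autonomic neurons, differed by −1.21 (9.41 and 19.3), and *Colq*, which anchors ACHE, by −1.20 (8.03 and 16.6). Of the 30 further motor neuron genes, 21 were above background on at least 1 array. Among them 1 was at least 2-fold higher and 3 at least 2-fold lower, again near the background, with a median of −0.11 over 13. The 3 were *Lhx1* (−2.26, signals 5.71 and 5.65), *Nkx6-1* (−1.84, 16.8 and 22.2) and *Reln* (−1.64, 9.27 and 14.1), of which *Lhx1* and *Nkx6-1* encode homeodomain factors and *Reln* the extracellular protein reelin. For *Lhx1* the 2 signals were nearly equal and close to the lowest well above background, 4.29 in WT and 4.33 in KO-labelled duodenum. Its difference therefore appears only with the scaling, on 75th percentiles of 68.0 and 323.

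Markers of the cells that could hold these transcripts gave the following values in the duodenum, where 7.2% of all genes compared were at least 2-fold higher and 11.9% at least 2-fold lower. The lists overlap in part. *Phox2a* is in the enteric and the ganglion neuron lists, *Avil* in the ganglion neuron and tuft cell lists, and *Uchl1* and *Elavl3* in the enteric and all-neuron lists. Of 11 enteric neuron genes, 0 were at least 2-fold higher or lower, and the 8 above background on both arrays had a median of 0.094 and ranged from −0.73 to 0.62. Of 13 sensory and autonomic ganglion neuron genes with a probe, 7 were above background on at least 1 array. Among these 7, 2 were at least 2-fold lower and 0 at least 2-fold higher. The 7 of them above background on both arrays were all below 0, with a median of −0.55 and a range from −1.54 to −0.23. The 7 genes shared by all neurons with a value on both arrays had a median of −0.57 and a wide range, from −4.14 to 0.87. The 7 tuft cell genes measured on both, relevant to *Chat*, had a median of −0.51, with 1 of 9 at least 2-fold lower (*Gfi1b*). Of 10 pancreatic islet genes, relevant to *Isl1*, 5 were at least 2-fold higher on the KO-labelled array and 0 at least 2-fold lower. The 9 measured on both had a median of 1.17 and ranged from −0.79 to 2.79, with 3 below 0. The summed signals of the list, before scaling, were 3214 in WT and 28788 in KO-labelled duodenum, where the 75th percentiles were 68.0 and 323. *Ppy*, the pancreatic polypeptide gene, had signals of 8.44 and 276 before scaling and a difference of 2.79 after it. The 10 enteroendocrine genes measured on both had a median of 0.057, and 6 red blood cell genes a median of −3.39. The part of ganglion neurons, islet, tuft or red blood cells in the member values was not tested. The 8 gut epithelial genes had a median of −0.035 and ranged from −1.81 to 0.33.

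Between the tissues, 6 of 7 members were at least 2-fold lower in the duodenum in either genotype, against 23.1% of 25218 genes in WT and 25.4% of 25720 genes in the KO-labelled mice, and 0 of 7 were at least 2-fold higher (30.2% and 30.3% of genes). The member outside this count was *Isl1* in both genotypes, in WT because no fold could be given on this scale. *Isl1* was counted too, for 7 of 7 in both genotypes, when the arrays were scaled on the spiked-in controls or by quantiles within a tissue, and normexp background correction left 4 of 7 in WT. *Slc18a3* was lower in the duodenum by 15.5-fold in WT (a difference of −3.96) and 37.5-fold in KO-labelled mice (−5.23). *Chat* was at least 12.9-fold lower in WT, a bound set by the dim duodenum array, and 23.6-fold lower in KO-labelled mice. *Slc5a7* was at least 43.3-fold lower in WT and 115-fold lower in KO-labelled mice, and its second probe was at least 7.83-fold and at least 37.6-fold lower. *Ache* was 14.2-fold and 16.0-fold lower, so the 3 presynaptic genes and the hydrolase moved the same way in both genotypes.

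*Isl2* was at least 7.21-fold lower in WT duodenum and 15.8-fold lower in KO-labelled duodenum, and *Prph* 6.31-fold and 10.5-fold lower. *Isl1* was not above background in WT duodenum, and its level in WT spinal cord, −4.23, lay below −3.99, the lowest level well above background in WT duodenum. Neither a fold nor a bound could therefore be given for *Isl1* in WT on this scale. In KO-labelled mice *Isl1* differed by −0.021 between the tissues (technical SD of a single spot 0.129). This value ran from −2.65 to 0.76 over the 9 scalings and was above 0 under 5 of them. Over 10 pairs of spots the difference had a mean of −0.021 and an SD of 0.126 and was higher in the duodenum in 4. Relative to the median gene of that comparison, which was at 0.30, *Isl1* lay between −0.33 and 0.19 over the 9 scalings, while each of the other 6 members lay below the median gene in 9 of 9. Here too the 9 are not separate checks, because scalings that shift an array as a whole give the same relative value. The median gene itself shifted with the scaling, from 0.63 in WT and 0.30 in KO-labelled mice to −4.41 and −1.57 with the spiked-in controls. The 12 genes shared by all neurons were lower in the duodenum as well, 11 by at least 2-fold in WT and 12 in KO-labelled mice. Of the further motor neuron genes, 20 and 23 of 30 were at least 2-fold lower and 4 and 3 at least 2-fold higher.

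**Figure D5:**
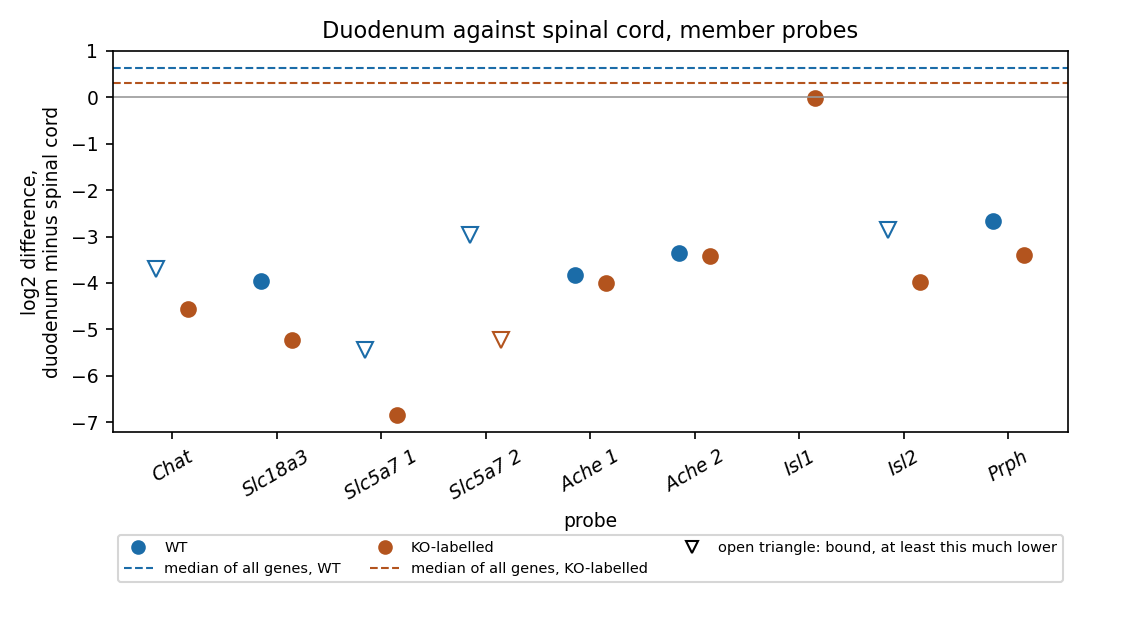
Difference in normalized level (log2, duodenum minus spinal cord) of the 9 member probes in WT (blue) and KO-labelled mice (orange), 1 array per tissue and genotype, with open triangles for bounds and dashed lines for the median of all genes. All probes but that of *Isl1* lie at −2.66 or below, and *Isl1* in KO-labelled mice lies at −0.021.

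The genes whose levels over the 4 arrays were most like those of *Chat* were sought among 16311 genes, by the Euclidean distance between normalized levels centred on their own mean, with levels not well above background set to the lowest level that the array could show. *Chat* itself was so set in WT duodenum, to −3.99 in place of its own reading of −3.63, so 1 of its 4 levels is not a measurement. *Robo1* was set to the same level on that array, so part of its closeness was built in. The distances and their order are therefore not exact. *Limk1* (distance 0.084), *Plcl1* (0.085), *Robo1* (0.098), *Rundc3a* (0.116) and *Ankrd29* (0.120) were the nearest. *Limk1*, for instance, had signals of 14352, 14644, 65.8 and 222 in the order used above. These distances rest on 4 arrays, 2 of each tissue, and are a description.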

How the data were processed

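The authors hybridized Cy3-labelled cRNA, made from 0.1 µg of total RNA with an RNA integrity number above 7.0, to 1-colour Agilent mouse arrays of 43020 spots and, per the labels, extracted spots with Agilent Feature Extraction 11.5.1.1. The deposited scanner output gives the processed signal, an intensity after background subtraction, with flags for outlier and saturated spots and for spots well above background. The deposited series table holds log2 values, which for the members lay within 0.0029 of log2 processed signals normalized by quantiles over the 4 arrays, and it was used as an alternative. No gene-level columns of the authors' own comparisons were used.

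Control spots and outlier spots (89 to 133 per array) were left out, spots of a probe were averaged, and log2 signals were centred on the 75th percentile of the array. Names came from the RefSeq accession of the probe (25868 of 26391 probes with one were matched, giving 20139 symbols), and a gene was represented by its probe with the highest mean. A probe well above background on 1 array of a comparison gives a bound, taken against the higher of the dimmer array's lowest level well above background and the probe's own level, with no fold where this is under 1. A difference counted when it reached 2-fold. The technical SD of a difference is that of a single spot, taken as the median over the 50 probes nearest in brightness. It overstates the spot error of *Isl1*, whose value is a mean over spots. Named were all members, the 3 genes farthest from 0 in the pathway and motor neuron lists, 1 gene per other list, *Ip6k2* and the 5 genes nearest *Chat*. The genes of the muscle receptor subunits and genes shared by lists were named as well. The members and lists were chosen with earlier results of these data known, and the gut epithelium list was added after the files were seen. The arrays' number, 1 per group, limits the precision. No spot was saturated. The scripts were tested on simulated data. R 4.3.3, limma 3.58.1, Python 3.11.15, numpy 2.4.6 and pandas 2.3.3 were used. Alternatives were 2 normexp background corrections (offset 50), quantile normalization over all arrays or within a tissue, median centring, scaling on 8 spiked-in control probes, the mean over a gene's probes, the deposited table, 2 other treatments of dim probes and a 1.5-fold limit.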

Additional observations from a re-analysis of the deposited data

How the results depend on the processing

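No paired analysis was possible because every comparison set 1 array against 1 array (pairs pooled over both tissues or both genotypes were not analysed), and for the same reason no array could be left out. Of the counts of members past 2-fold, 82 of the values under an alternative equalled the reported one or stayed near it. The count lower in the spinal cord went from 0 to 1 under normexp background correction, where the gene is *Isl1* and the WT array had a local background of up to 15708. In the duodenum the spiked-in controls gave 7 members higher and 0 lower, no filter on dim probes gave 1 higher, and a limit of 1.5-fold gave 2 lower. Only genes above background on both arrays left 3 members lower in the WT tissue comparison, because 3 genes were tested. Of the differences larger than their technical SD, signs turned in the spinal cord under normexp for *Ache* (0.16), *Isl1* (−1.59) and *Isl2* (−0.36), when the median gene was at −0.45, and for *Isl2* also with flagged local backgrounds replaced (−0.0042) and with the spiked-in controls (−0.13). Differences within the technical SD took both signs over the 9 scalings: in the spinal cord *Chat* from −0.16 to 0.021, *Slc18a3* from −0.19 to 0.35, *Slc5a7* from −0.15 to 0.22 and *Prph* from −0.17 to 0.34, and between the tissues *Isl1* of KO-labelled mice from −2.65 to 0.76. In the duodenum the spiked-in controls turned *Slc18a3* (1.71), *Ache* (2.75), *Prph* (2.27) and the median of the 3 (2.27), with the median gene at 2.89. Of the other values for single genes and medians, 84 moved by at most the technical SD (0.1 for a bound) and 123 by more, 110 of them with the reported sign. The cause was not tested beyond what is stated. Signal over background limits the WT duodenum array, where 4 of the 7 members were not well above background.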
